A study of Mus musculus with 29 samples.

Results

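The signals of 10 genes for nuclear RNAs and splicing factors were followed across mouse lung tumours: the long noncoding RNAs Neat1, Malat1 and Firre, the kinase genes Clk1 and Clk4, the cyclin genes Ccnl1 and Ccnl2, and the genes Rsrp1, Luc7l and Rbm25. They were chosen by name with earlier results of these arrays known, so the p-values below are not independent evidence for the choice. All 35 probe sets that the platform annotation assigns to these 10 genes were taken, of 45101 on the array, whose single-gene annotations name 18194 genes. Malat1 had 7 of them, Rbm25 and Luc7l 6 each, Firre 4, Rsrp1 and Ccnl2 3 each, Clk4 and Neat1 2 each, and Clk1 and Ccnl1 1 each. In the account below the probe set with the highest mean signal of a gene is called its lead probe set.

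The study hybridized total RNA of 28 lung tumours and 1 normal lung to Affymetrix arrays, 1 array per sample, and its title concerns relapse after an oncogene is switched off. The 6 recurrences and the 14 TI-KM primary tumours carried CCSP-rtTA, TRE-KrasV12 and TRE-Mad2. The 8 TI-K primary tumours carried CCSP-rtTA and TRE-KrasV12, and the normal lung carried CCSP-rtTA alone. CCSP-rtTA drives the tetracycline-controlled activator from an airway epithelial promoter, KrasV12 is an activated oncogene, and Mad2 is a spindle checkpoint protein whose excess disturbs chromosome segregation. All animals were of a mixed 129/Bl6 background, and the labels used here give neither age nor doxycycline state at collection. The titles of TI-KM replicates 1 and 2 carry 1 number, 76, so both may be from the same animal. In the labels used here nothing else ties tumours to animals, and the p-values measure the spread between arrays, which may be partly technical.

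Most messenger RNAs leave the nucleus once spliced, but some transcripts stay there. Neat1 is the RNA scaffold of paraspeckles, Malat1 gathers in nuclear speckles beside splicing factors, and Firre is an X-linked nuclear RNA that helps anchor chromosome domains. Clk1, Clk4 and their kin are known for detained introns: much of their transcript is kept in the nucleus with some introns unspliced, and is spliced and released when the activity of the kinases they encode drops. CLK kinases phosphorylate the SR proteins, the serine- and arginine-rich factors that help to choose splice sites, and cyclins L1 and L2 are speckle proteins that pair with the kinase CDK11.

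Promoter windows of 300 bases, from 250 before to 50 after the gene start, were on hand in RefSeq (GRCm38.p6) for 7 of the 10 genes, all but Neat1, Clk1 and Luc7l. Those of Firre (chrX:50635272-50635571, minus strand), Clk4 (chr11:51262864-51263163, plus strand) and Ccnl1 (chr3:65958200-65958499, minus strand) are printed because Clk4 and Ccnl1 share a match that few windows hold, and Firre serves for contrast. Capitals mark matches, on either strand, to the letters of the motifs searched.
Firre: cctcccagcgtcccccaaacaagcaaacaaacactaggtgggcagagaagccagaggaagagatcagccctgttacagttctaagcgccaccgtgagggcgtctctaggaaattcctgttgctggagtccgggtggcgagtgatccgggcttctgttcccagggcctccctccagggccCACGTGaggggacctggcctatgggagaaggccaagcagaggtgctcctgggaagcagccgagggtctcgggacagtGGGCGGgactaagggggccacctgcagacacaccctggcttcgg
Clk4: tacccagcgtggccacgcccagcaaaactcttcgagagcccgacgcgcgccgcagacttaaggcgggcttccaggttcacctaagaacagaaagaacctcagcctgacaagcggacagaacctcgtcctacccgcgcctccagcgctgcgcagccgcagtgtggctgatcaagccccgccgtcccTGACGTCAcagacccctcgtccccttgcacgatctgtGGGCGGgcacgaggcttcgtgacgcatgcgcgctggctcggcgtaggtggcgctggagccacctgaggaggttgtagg
Ccnl1: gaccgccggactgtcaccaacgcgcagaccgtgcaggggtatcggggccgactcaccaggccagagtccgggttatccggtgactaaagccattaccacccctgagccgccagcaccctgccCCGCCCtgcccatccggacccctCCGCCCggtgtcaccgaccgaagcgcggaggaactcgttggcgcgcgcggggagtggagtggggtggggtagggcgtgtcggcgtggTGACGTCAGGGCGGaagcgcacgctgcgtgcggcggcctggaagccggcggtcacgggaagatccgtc
The cyclic AMP response element TGACGTCA was found in Clk4 and Ccnl1, 2 of the 7 windows, and in 1.79% of 32851 promoter windows of that length. In Ccnl1 it abuts a GC box, GGGCGG, with no letters shared between the matches. The GC box was found in 5 of the 7, Firre, Clk4, Ccnl1, Ccnl2 and Rsrp1, and in 35.7% of all windows. The E-box CACGTG was found in Firre alone (7.15% of all windows), CCAAT in Ccnl2 and Rsrp1 (37.4%), the ETS letters CCGGAAG in Ccnl2 (8.86%) and TATAAA in Rbm25 (13.6%). The palindromic NRF1 motif was in 0 of the 7 windows (0.971%). The matches describe letters in these windows and no binding.

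Several features of the arrays move with the groups and touch the results. Among the tumours, the 18S ribosomal control signal was above 12000 in 4 recurrences (replicates 1 to 4) and 6 TI-KM primaries (replicates 1 to 6), called high-18S arrays. The 5 TI-K tumours numbered replicates 1 to 5 have title numbers above 6000 and are called high-number arrays. The remaining arrays are 2 recurrences, 8 TI-KM and 3 TI-K tumours. These sets are not in the labels and were known from earlier work on the data. The 3'/5' signal ratio of the Gapdh and beta-actin control probe sets, a sign of RNA integrity and of how far the labelled strands extend, averaged 1.32 ± 0.45 on the log2 scale in recurrences (SD, n = 6), 2.16 ± 0.67 in TI-KM primaries (n = 14) and 2.16 ± 0.41 in TI-K primaries (n = 8), and was 2.59 in the normal lung. For Gapdh alone the 3 tumour means were 1.56, 2.39 and 2.26, and for beta-actin alone 1.08, 1.93 and 2.06, in the same order. Summed signals of 4 epithelial markers were 16128 to 62453 in recurrences, 35240 to 56794 in TI-KM primaries and 25832 to 49329 in TI-K primaries, with every marker's median above the offset of 20. Those of 5 leukocyte markers were 3843 to 32691 in recurrences, 8342 to 16691 in TI-KM primaries and 10823 to 22496 in TI-K primaries. Those of 4 alveolar type II markers, genes of a cell type known to give rise to lung adenocarcinoma in mice, were 45815 to 78286, 56192 to 86639 and 59524 to 88459 in the same group order. The summed signal of the 2 fat markers on the array was at most 287 in the tumours but 33914 in the normal lung. Median leukocyte sums were 11734 in recurrences, 13694 in TI-KM and 14270 in TI-K primaries. Median alveolar type II sums were 66425, 67792 and 68759, also in the order of the members. Median sums of the epithelial (40599, 46595.5 and 35098), 4 endothelial (5298, 3431 and 4545) and 4 fibroblast markers (10622, 9298 and 13253) followed neither that order nor its reverse. Medians of airway markers ran opposite to the members. The 3 club cell markers summed to a median of 51371 (12621 to 69238) in recurrences, 35988 (5229 to 58679) in TI-KM primaries and 15297 (9122 to 45111) in TI-K primaries. The 3 ciliated cell markers summed to a median of 2280 (1002 to 12119) in recurrences, 1555 (447 to 7829) in TI-KM primaries and 949.98 (365 to 2205) in TI-K primaries. The normal lung had sums of 74615 for club and 3885 for ciliated cell markers, above each tumour group median. The tumour ranges overlap, no club or ciliated cell marker had a group median below 20, and the part of all these cells in the results was not tested. In bulk tissue, fewer cells of a type and less RNA per cell cannot be told apart.

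Lead probe sets of all 10 genes had the same order of group medians, with recurrences lowest, TI-KM primaries between and TI-K primaries highest. Of the 35 probe sets, 32 passed a filter on low values (signal above the 40th percentile of the array in at least 6 arrays); 1 Firre and 2 Luc7l probe sets did not and were not tested. Of the 32, 27 had that order, or 84.4%, and of all 31932 probe sets that passed the filter 25.6% had it. The genes were chosen with these results known, so the order is a description. Differences are given on the log2(signal + 20) scale, which understates the change of weak probe sets. Signals of different probe sets, which differ in sequence and brightness, are not set against each other.

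**Figure D1:**
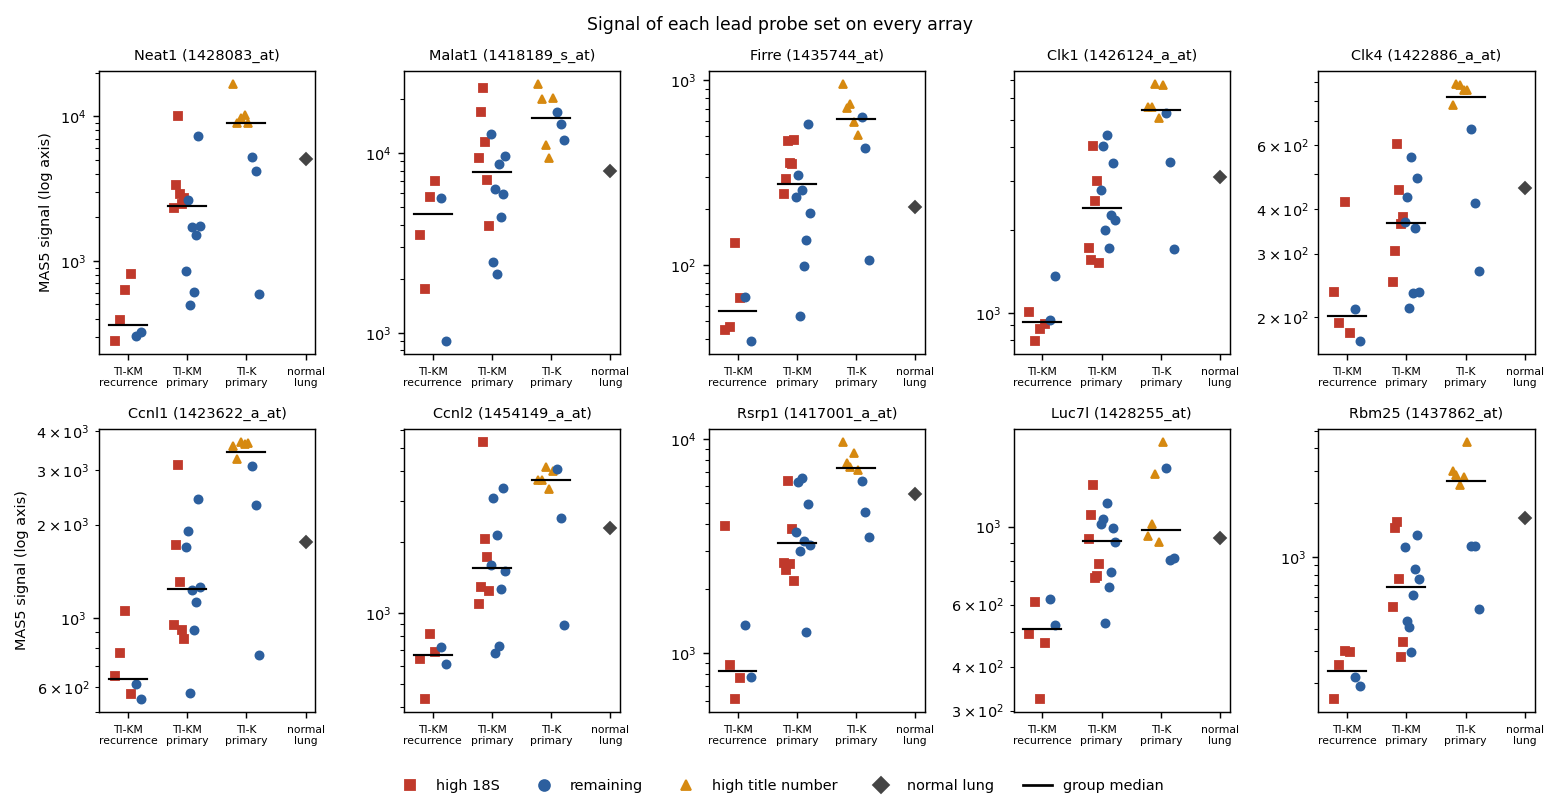
MAS5 signal (log axis) of the lead probe set of each gene on all 29 arrays, in TI-KM recurrences, TI-KM primaries, TI-K primaries and the normal lung from left to right; each point is an array, its shape and colour give the set of arrays, and lines are group medians. The recurrence median is the lowest in each panel, and the 5 high-number TI-K arrays are mostly at the top. For Clk1 every recurrence lies below every TI-KM primary, as in 0.072% of all probe sets. The genes were chosen with these values known, so nothing is read from that.

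Among primary tumours, TI-KM had lower signal than TI-K for 19 of the 32 tested probe sets and higher signal for none (limma adjusted p below 0.05 over all 31932 probe sets tested). The background in this comparison was large: 15.8% of all probe sets were called, 8.33% as lower and 7.49% as higher. The 19 came from 9 of the 10 genes, all but Luc7l, and included 9 of the 10 lead probe sets. The median difference over the 32 was -0.91, against 0.04 over all probe sets tested, and 31 of the 32 were negative, as they were with arrays scaled to a common median or quantile normalized. No probe set of the 32 separated the groups in full, as 0.0219% of all probe sets did. When set was added as a block, among the remaining arrays only, or without the high-number arrays, 0 of the 32 were called, and so were 0 of all 31932; at an unadjusted p below 0.05, 2, 2 and 0 of the 32 passed, and 1445, 1916 and 1648 of all. The median difference over the 32 was then -0.40, -0.38 and -0.28. Leaving out TI-K replicate 1, 2, 4 or 5 gave 11 calls, and leaving out replicate 3 gave 12, while the share of all probe sets called was also lower, between 7.8% and 8.89%. With each of the 29 arrays left out in turn, the leads of Clk1, Clk4, Ccnl1 and Rbm25 were called every time, those of Neat1 and Rsrp1 in 24 fits, that of Firre in 18, that of Malat1 in 14 and that of Ccnl2 in 13. All high-number arrays are TI-K and all high-18S primaries are TI-KM, so among primaries the genotypes meet within a set only in the 8 TI-KM and 3 TI-K remaining arrays.

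Results of recurrences against TI-KM primaries were known when the genes were chosen, so values of the members are a description, given without p-values. The members were part of the fit, and counts of their calls are given at the end only to describe the settings. All 10 lead probe sets were lower in recurrences, with log2 differences of -0.63 (Clk4) to -2.28 (Neat1), as were 28 of the 32 tested probe sets. The median difference over the 32 was -0.92, against 0.03 over all. Over all probe sets limma called 0.442% in this comparison, 0.388% as lower and 0.0532% as higher. Within the high-18S arrays, 4 recurrences and 6 TI-KM primaries, 28 of 32 differences were negative (median -0.87). Within the remaining arrays, 2 recurrences and 8 TI-KM primaries, 32 of 32 were (median -0.97), all resting on the same 2 recurrences. With the 3'/5' ratio as a covariate the median was -0.56 and 27 were negative. The share of all probe sets with a negative difference is not given for these settings, so nothing is read from these counts. Recurrences against TI-K primaries, which share the recurrences with this comparison, differed by a median of -1.91 over the 32 probe sets, against 0.08 over all. That comparison is likewise a description for the members, while over all probe sets 26.9% were called, 13.3% as lower and 13.6% as higher. There 31 of the 32 differences were negative, the median was -1.37 with set as a block, -1.42 among the remaining arrays and -1.24 without the high-number arrays, and over all probe sets it was then -0.06, -0.04 and 0.09.

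**Figure D2:**
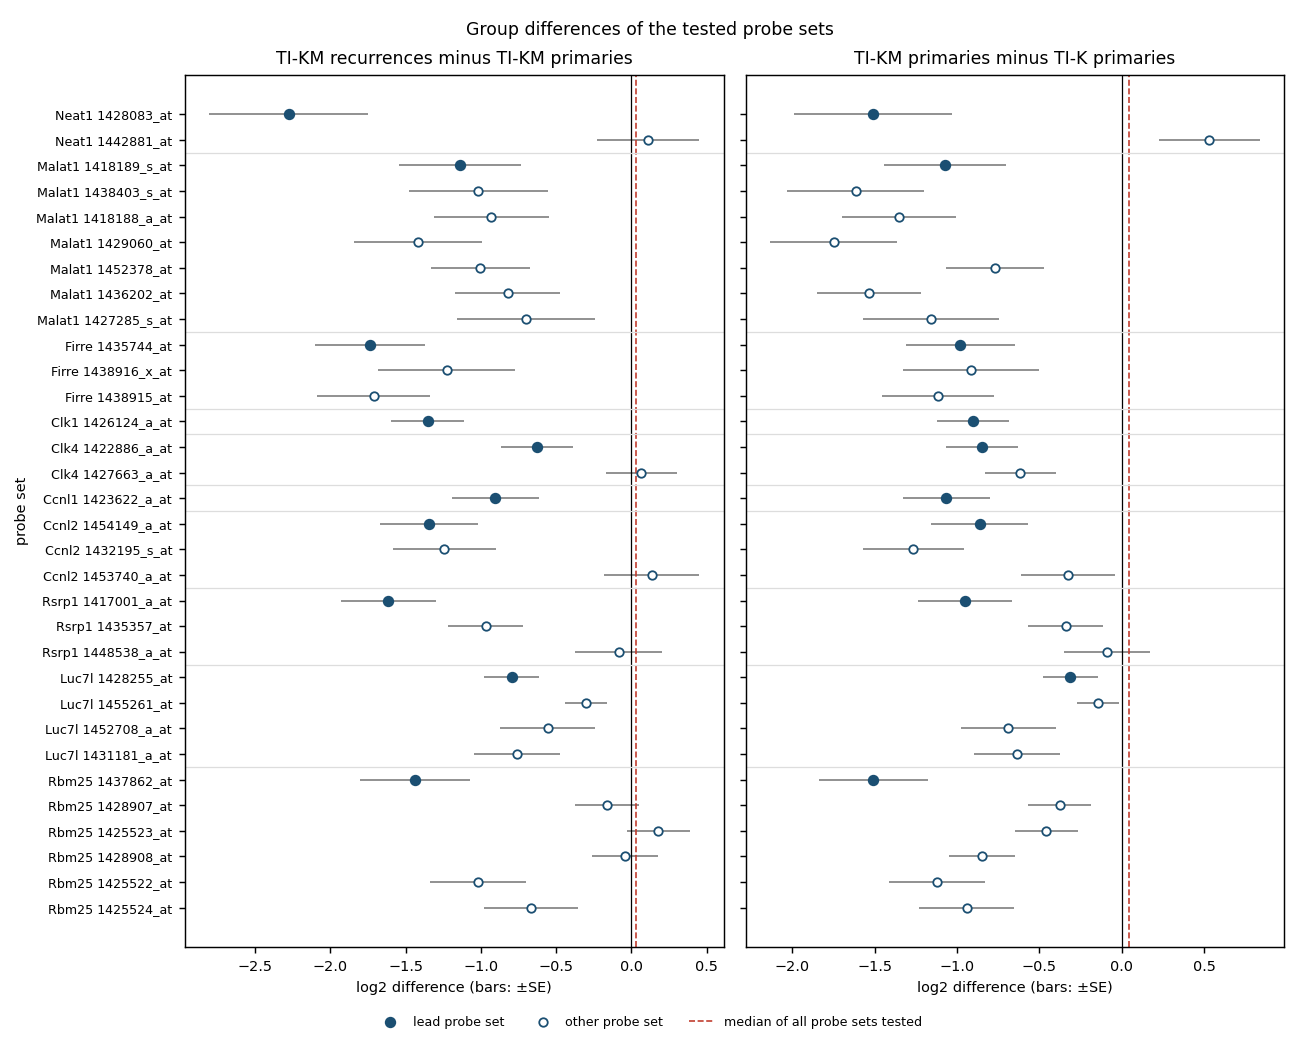
Log2 differences with SE bars for the 32 tested probe sets, recurrences minus TI-KM primaries on the left and TI-KM minus TI-K primaries on the right; filled points are lead probe sets and the dashed line is the median over all probe sets tested. Most points lie left of 0 in both panels, while the second Neat1 probe set lies right of it in both.

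Of the 10 leads, that of Neat1 had the most negative difference between recurrences and TI-KM primaries. Neat1 (chromosome 19, lead probe set 1428083_at) had a lowest, median and highest signal of 279, 358 and 815 in the 6 recurrences, of 492.6, 2398 and 10009.7 in the 14 TI-KM primaries and of 588, 9044 and 16868 in the 8 TI-K primaries; the normal lung had 5089.65. Of the 6 recurrences, 4 lay below every TI-KM primary, while a single TI-K array, replicate 8, sat far below the other 7, whose lowest value was 4214. Neat1 fell by 1.51 ± 0.48 on the log2 scale in TI-KM against TI-K primaries (SE; 2.85-fold lower, limma adjusted p = 0.0324). Under the block by set the difference was -0.60 ± 0.59. Recurrences minus TI-KM primaries gave -2.28 ± 0.53, and -2.75 ± 0.41 among the high-18S arrays alone.

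The second Neat1 probe set, 1442881_at, went another way. Its lowest, median and highest signals were 66.7, 253 and 308 in recurrences, 42.0, 159 and 461 in TI-KM primaries and 82.9, 110 and 141 in TI-K primaries, with 94.3 in the normal lung. Every group overlapped every other, and neither TI-KM against TI-K primaries (0.53 ± 0.31, limma adjusted p = 0.227) nor recurrences against TI-KM primaries (0.11 ± 0.34) gave a negative difference. Within TI-KM primaries it split by set without overlap: 221 to 461 in the 6 high-18S arrays against 42.0 to 172 in the 8 remaining ones (1.46 ± 0.20, limma adjusted p = 3.88e-06). Of all probe sets 11.8% split these sets in the same direction without overlap, and 32.1% were called as higher in the high-18S arrays. Residuals of the 2 probe sets about their group and set means had r = -0.04 over the 28 tumours. The annotation used here does not say which Neat1 isoform each reads.

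Malat1 (chromosome 19) was read by 7 probe sets. Its lead, 1418189_s_at, had a lowest, median and highest signal of 900, 4570.06 and 6973 in recurrences, 2117, 7910 and 23072 in TI-KM primaries and 9417, 15774 and 24432 in TI-K primaries, and 7984 in the normal lung. All 6 recurrences were below all 8 TI-K primaries, whereas recurrences and TI-KM primaries overlapped. Of all probe sets 3.24% separated recurrences from TI-K primaries in this way. Malat1 fell by 1.07 ± 0.37 in TI-KM against TI-K primaries (SE; 2.10-fold lower, limma adjusted p = 0.0455), a call kept in 14 of the 29 fits with 1 array left out (limma adjusted p up to 0.102, without TI-K replicate 1). The other 6 probe sets differed by -0.77 to -1.75, and 4 of them were called. Unlike the other leads, that of Malat1 had a difference as large with the sets as a block (-1.34 ± 0.53) and among the remaining arrays (-1.35 ± 0.54), although neither passed after adjustment (adjusted p = 0.984 and 0.762). Among the remaining arrays its other probe sets varied in the gap between TI-K and TI-KM medians. These were 2317 against 2045 (1438403_s_at), 103 against 111 (1427285_s_at) and 1624 against 1466 (1452378_at). For the rest they were 3896 against 2720 (1418188_a_at), 2085 against 774 (1429060_at) and 1633 against 645 (1436202_at). Between recurrences and TI-KM primaries the 7 probe sets differed by -0.70 to -1.42, the lead by -1.14 ± 0.41, and the lead by -0.56 ± 0.44 with the 3'/5' ratio as a covariate.

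Firre (X chromosome) had 3 tested probe sets. The lead, 1435744_at, gave a lowest, median and highest signal of 38.7, 56.2 and 132 in recurrences, 53.3, 275 and 580.3 in TI-KM primaries and 107, 613 and 959 in TI-K primaries, with 207 in the normal lung. All 6 recurrences lay below the TI-KM median, and 3 of them below every TI-KM primary. Firre fell by 0.98 ± 0.33 in TI-KM against TI-K primaries (SE; 1.97-fold lower, limma adjusted p = 0.0423; up to 0.106 with 1 array left out, TI-K replicate 1), and its difference was -0.60 ± 0.44 under the block. By Xist and Y-linked signals, 4 female and 4 male TI-K primaries and 4 female and 10 male TI-KM primaries were inferred. With inferred sex as a covariate 17 of the 32 probe sets were called, with 15% of all. Recurrences minus TI-KM primaries gave -1.73 ± 0.37 for the lead, and -1.23 and -1.71 for the others. For 1438915_at 5 of the 6 recurrences were below the offset of 20, so its signal there has no order. The fourth Firre probe set, 1436638_at, did not pass the filter: it was above the percentile in 5 arrays and lay below 20 in 5 of 6 recurrences, 12 of 14 TI-KM primaries and 3 of 8 TI-K primaries. Those 3 are the remaining TI-K arrays (3.71 to 9.49), whereas the 5 high-number arrays read 91.5 to 142.

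Of the kinases that phosphorylate SR proteins, Clk1 (chromosome 1, 1426124_a_at) was the member whose recurrences did not overlap the TI-KM primaries. Its lowest, median and highest signals were 789, 926 and 1364 in recurrences, 1519.88, 2402 and 4431 in TI-KM primaries and 1709, 5446 and 6792 in TI-K primaries, and it read 3104 in the normal lung. Every recurrence was below every tumour of both primary groups. Clk1 was chosen with these values known, so nothing is read from its separation or from the 0.072% of all probe sets that separate recurrences from TI-KM primaries likewise. Clk1 fell by 0.90 ± 0.22 in TI-KM against TI-K primaries (SE; 1.87-fold lower, limma adjusted p = 0.00887), and its difference was -0.22 ± 0.29 with the sets as a block. The difference of recurrences from TI-KM primaries, -1.35 ± 0.24, was -1.31 ± 0.28 within the high-18S arrays (4 recurrences) and -1.25 ± 0.38 within the remaining arrays (2 recurrences). With the 3'/5' ratio as a covariate it was -1.21 ± 0.28.

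Clk4 (chromosome 11, 1422886_a_at) encodes a close relative of Clk1. It gave 171, 201 and 418 as lowest, median and highest signal in recurrences, 212, 365 and 605 in TI-KM primaries and 268, 818 and 892 in TI-K primaries, and 457 in the normal lung. Of the recurrences, 4 were below every TI-KM primary, and recurrence replicate 3 held the highest value. Clk4 fell by 0.85 ± 0.22 in TI-KM against TI-K primaries (SE; 1.80-fold lower, limma adjusted p = 0.0113), with -0.31 ± 0.28 under the block. Its other probe set, 1427663_a_at, also fell there (-0.62, adjusted p = 0.0488), but between recurrences and TI-KM primaries it differed by 0.07 ± 0.24, against -0.63 ± 0.24 for the lead. The 2 probe sets nevertheless varied together within groups and sets (r = 0.81 over 28 tumours).

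The cyclin L genes showed the same ordering. Ccnl1 (chromosome 3, 1423622_a_at) had a lowest, median and highest signal of 548, 635 and 1052 in recurrences, 575, 1246 and 3108 in TI-KM primaries and 761, 3423 and 3696 in TI-K primaries, and 1764 in the normal lung. The 5 high-number TI-K arrays lay between 3256 and 3696, above all TI-KM primaries, as in 4.79% of all probe sets, and the 3 remaining TI-K arrays between 761 and 3094. Ccnl1 fell by 1.07 ± 0.26 in TI-KM against TI-K primaries (SE; 2.09-fold lower, limma adjusted p = 0.00918), with -0.49 ± 0.37 under the block. Recurrences minus TI-KM primaries gave -0.90 ± 0.29, and -0.52 ± 0.32 with the 3'/5' ratio as a covariate.

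Ccnl2 (chromosome 4, 1454149_a_at) had 431, 662 and 812 in recurrences, 679, 1550.43 and 5332 in TI-KM primaries and 887, 3666 and 4163 in TI-K primaries as lowest, median and highest signal, with 2297 in the normal lung. All recurrences were below all TI-K primaries, and 3 of the 6 below every TI-KM primary. It fell by 0.86 ± 0.30 in TI-KM against TI-K primaries (SE; 1.82-fold lower, limma adjusted p = 0.0444), with -0.39 ± 0.44 under the block. This call was kept in 13 of the 29 fits with 1 array left out (limma adjusted p up to 0.0935, without TI-K replicate 3). A second probe set, 1432195_s_at, followed the lead closely (-1.26 ± 0.31, adjusted p = 0.0087; r = 0.95 with the lead over 28 tumours). The third, 1453740_a_at, was not called (-0.33 ± 0.29 for TI-KM against TI-K primaries, 0.13 ± 0.32 for recurrences against TI-KM primaries), but was higher in the high-18S than in the remaining TI-KM primaries (1.13 ± 0.21, adjusted p = 0.000122).

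Rsrp1 (chromosome 4, 1417001_a_at), which encodes an arginine- and serine-rich protein, had a lowest, median and highest signal of 608, 826 and 3927 in recurrences, 1250.06, 3268 and 6564 in TI-KM primaries and 3481, 7291 and 9709.99 in TI-K primaries, and 5546 in the normal lung. Recurrence replicate 1 held the highest recurrence value, above the TI-KM median, and the next highest recurrence had 1357. Rsrp1 fell by 0.95 ± 0.29 in TI-KM against TI-K primaries (SE; 1.93-fold lower, limma adjusted p = 0.0253), with -0.40 ± 0.42 under the block. Its other probe sets differed by -0.34 and -0.09 and were not called. Recurrences minus TI-KM primaries gave -1.62 ± 0.31 for the lead, -0.97 ± 0.25 for 1435357_at and -0.08 ± 0.29 for 1448538_a_at.

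Luc7l (chromosome 17, 1428255_at), a relative of a yeast U1 snRNP protein, was the member not called between the primary groups. Signals ran over 323, 511 and 621 (lowest, median, highest) in recurrences, 531, 911 and 1315 in TI-KM primaries and 801, 977 and 1743 in TI-K primaries, with 930.2 in the normal lung. Its difference between TI-KM and TI-K primaries was -0.31 ± 0.17 (SE, limma adjusted p = 0.188), and none of its 4 tested probe sets was called (-0.14 to -0.69). Recurrences minus TI-KM primaries gave -0.80 ± 0.18 for the lead, with 4 of the 6 below every TI-KM primary, and -0.30 to -0.76 for the others. The 2 probe sets that did not pass the filter had medians of 44.6 and 23.7 in recurrences, 31.8 and 21.9 in TI-KM primaries and 26.2 and 9.93 in TI-K primaries.

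Rbm25 (chromosome 12), a U1-associated splicing regulator, split by probe set. The lead, 1437862_at, had a lowest, median and highest signal of 163, 235 and 299.8 in recurrences, 279, 683 and 1573 in TI-KM primaries and 517, 2643 and 4353 in TI-K primaries, and 1654 in the normal lung. All recurrences were below all TI-K primaries, and 4 of the 6 below every TI-KM primary. It fell by 1.51 ± 0.33 in TI-KM against TI-K primaries (SE; 2.84-fold lower, limma adjusted p = 0.00503), with -0.45 ± 0.42 under the block. The other 5 probe sets differed by -0.38 to -1.12 there, and 3 of them were called. Between recurrences and TI-KM primaries the lead differed by -1.44 ± 0.36, 1425522_at by -1.02 ± 0.32 and 1425524_at by -0.67 ± 0.31, whereas 1428907_at, 1428908_at and 1425523_at differed by -0.16 ± 0.21, -0.04 ± 0.22 and 0.18 ± 0.21.

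**Figure D3:**
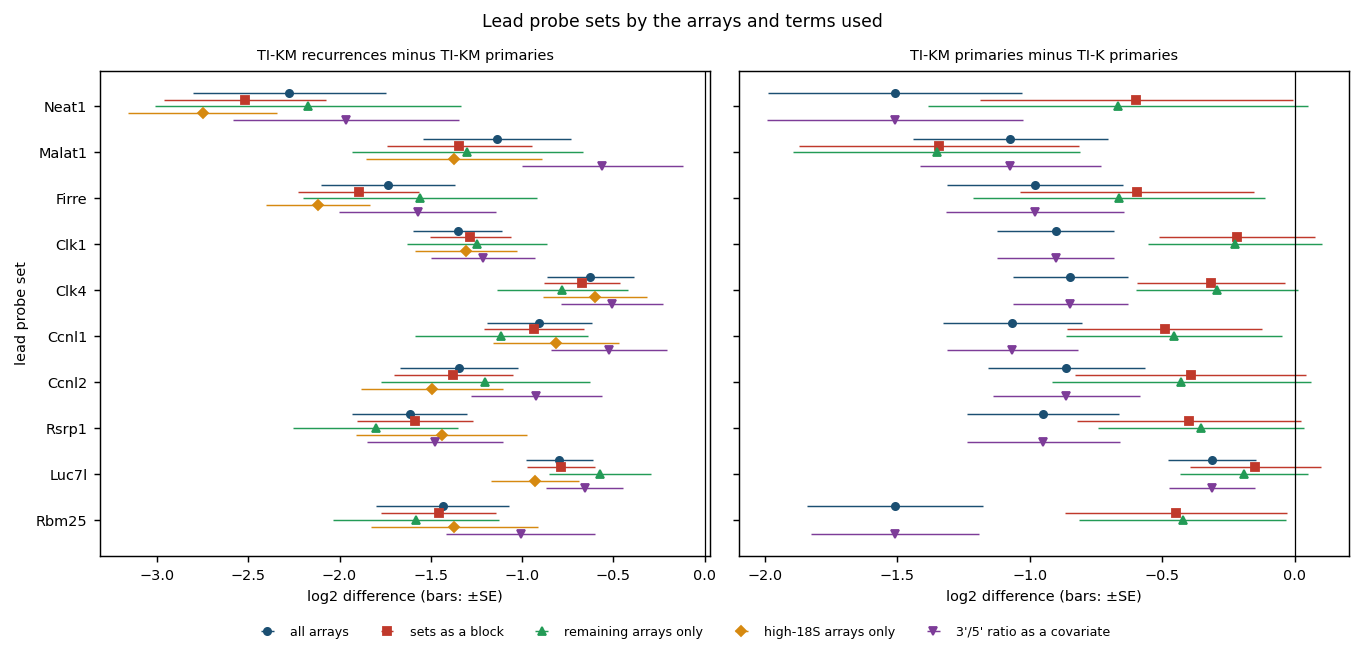
Log2 differences with SE bars of the 10 lead probe sets, recurrences minus TI-KM primaries on the left and TI-KM minus TI-K primaries on the right, by the arrays and terms used. On the left every value is negative; on the right all leads but Malat1 lie nearer to 0 with the sets as a block or among the remaining arrays.

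The normal lung is 1 array with no spread of its own. It lay above every recurrence in all 10 lead probe sets and in 25 of the 35 probe sets. The share of all probe sets placed likewise was not computed, and the genes were chosen with the recurrence results known, so nothing is read from these counts. Against TI-KM primaries it was within their range in 9 leads and above it for Rbm25, and against TI-K primaries it was within their range in 9 leads and below it for Malat1. Over the 35 probe sets it was within the range of the TI-KM primaries in 31 and of the TI-K primaries in 31. Its fat marker signal, given above, was above that of every tumour, and its part in these values was not tested.

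Within genotypes, the sets of arrays differed for the members too. In TI-K primaries, 9 of the 32 probe sets were higher in the 5 high-number than in the 3 remaining arrays and 0 lower (12% of all probe sets were called, 7.5% as higher and 4.49% as lower; limma adjusted p below 0.05). The 9 were the Neat1 lead (2.16 ± 0.66, SE), 3 Malat1 probe sets other than the lead (1.82 to 2.01), the Clk4 lead (0.98 ± 0.31), 1 Luc7l probe set (1.65 ± 0.32) and 3 Rbm25 probe sets including the lead (1.76 ± 0.47). Rbm25 read 2508 to 4353 in the high-number arrays and 517 to 1155 in the remaining ones, with no overlap. Of the 32 probe sets 19 separated these sets in that direction, and of all probe sets 17.5% did. The median over the 32 was 0.99, against 0.05 over all probe sets tested (-0.15 with arrays scaled to a common median, where 8 of the 32 and 14.6% of all were called). Without TI-K replicate 8 the count was 2, with 4.8% of all probe sets called, and without TI-K replicate 1 it was 5, with 8.24%. Without replicate 8 the leads gave 1.17 ± 0.66 for Neat1, 0.68 ± 0.34 for Clk4 and 1.38 ± 0.52 for Rbm25, none of them called (limma adjusted p = 0.305, 0.252 and 0.12). In TI-KM primaries, the high-18S arrays were higher than the remaining ones for 4 of the 32, where 42.4% of all probe sets were called, 32.1% as higher and 10.2% as lower: the second Neat1 probe set, the third Ccnl2 probe set, 1 Luc7l and 1 Malat1 probe set. The median over the 32 was 0.22, against 0.27 over all. With a common median set for all arrays, the median of all probe sets was -0.35 here and that of the 32 was -0.40, and 12 of the 32 were called, 10 of them as lower, where 47.6% of all probe sets were called. The leads of Ccnl1 and Luc7l turned to -0.64 and -0.62 under that scaling. Without TI-KM replicate 3, 9 or 11 the count was 2, with 37.5%, 39.8% and 40.1% of all probe sets called.

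Across the 28 tumours, signal was also fitted on the mean log2 3'/5' ratio within group and set, the slope being the log2 change in signal per unit of log2 ratio. Slopes were positive for 31 of the 32 probe sets, with a median of 0.44 against 0.07 over all, and 9 were called as positive and 0 as negative (15.7% of all probe sets called, 10% as positive and 5.72% as negative). They belonged to 5 genes. Malat1 had 4, with the lead at 0.90 ± 0.26 (SE, limma adjusted p = 0.0179) and the steepest, 1438403_s_at, at 1.24 ± 0.22 (adjusted p = 0.000591). Rbm25 had 2, with the lead at 0.87 ± 0.18 (adjusted p = 0.00181), and Ccnl1 (0.72 ± 0.17, adjusted p = 0.00465), Ccnl2 (0.69 ± 0.22, adjusted p = 0.0318) and Luc7l (1452708_a_at, 0.50 ± 0.14, adjusted p = 0.0141) had 1 each. The leads of Neat1 (0.77 ± 0.31, adjusted p = 0.0968), Firre (0.38 ± 0.25, adjusted p = 0.325), Clk1 (0.28 ± 0.16, adjusted p = 0.259), Clk4 (0.34 ± 0.15, adjusted p = 0.125) and Rsrp1 (0.33 ± 0.24, adjusted p = 0.377) were not called. TI-KM replicate 3 had the highest mean log2 ratio, 4.01, and without it 4 of the 32 and 2.87% of all probe sets were called. Of the leads, Rbm25 was then called (1.13 ± 0.27, limma adjusted p = 0.0259), and Malat1 (1.23 ± 0.39, adjusted p = 0.0796), Ccnl1 (0.76 ± 0.25, adjusted p = 0.0994) and Ccnl2 (0.46 ± 0.33, adjusted p = 0.484) were not. With arrays scaled to a common median the median slope of all probe sets was -0.11, and 6 of the 32 and 19.1% of all probe sets were called.

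**Figure D4:**
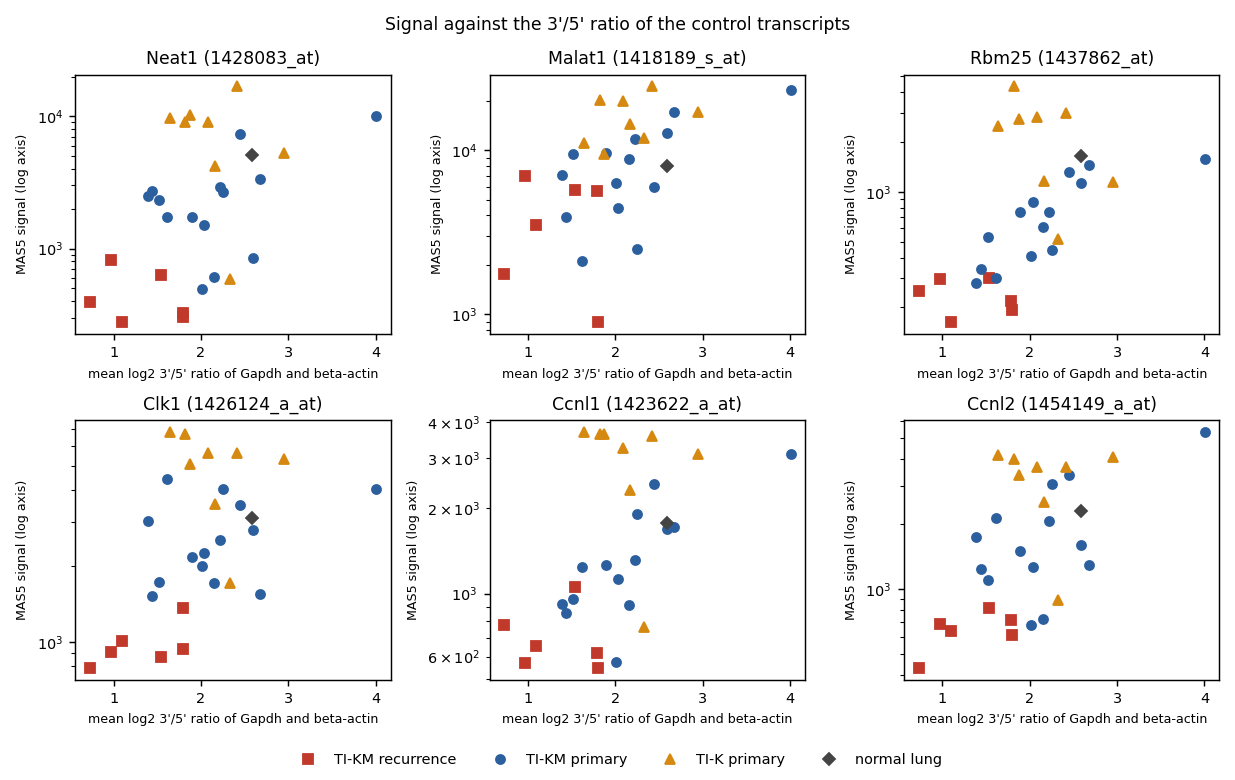
MAS5 signal (log axis) of 6 lead probe sets against the mean log2 3'/5' ratio of Gapdh and beta-actin, 1 point per array, by group. Recurrences lie at low ratios, and TI-KM replicate 3 stands alone at 4.01. For Clk1 every recurrence lies below every TI-KM primary (0.072% of all probe sets), from which nothing is read, since Clk1 was chosen with these values known.

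The members did not all vary together within groups. Residuals of the 10 lead probe sets about their group and set means were compared over the 28 tumours as a description; the arrays share depth of labelling and RNA quality, and the genes were chosen for a shared pattern. Pearson r over the 45 pairs ran from -0.11 to 0.87 with a median of 0.49, and 42 were positive. Neat1, Firre, Clk1, Clk4, Ccnl1 and Ccnl2 varied together, with r of 0.85 between Neat1 and Firre, 0.86 between Neat1 and Ccnl2 and 0.87 between Clk1 and Ccnl2. Within these 6, which were grouped by these same r values, the lowest r was 0.62, between Firre and Clk1. Outside them, Rbm25 had r of 0.70 with Ccnl1 and 0.52 with Neat1, but 0.14 with Clk1. The Malat1 lead had r of 0.10 with Neat1, -0.11 with Clk1 and 0.63 with Rbm25. TI-K replicate 8, in a set of 3 arrays, had the lowest TI-K signal for each of these 6 leads. It was also lowest for those of Rsrp1 and Rbm25, but not of Malat1 or Luc7l. Malat1 probe sets 1418188_a_at (3270.5), 1429060_at (477) and 1436202_at (692) were lowest there too. Their r with the Malat1 lead was 0.76, 0.34 and 0.57. The r values without that array were not computed, so its part in the grouping was not tested. Over all tested probe sets of other genes, those most like Neat1 were Kank3 (0.93), A530020G20Rik (0.90) and Zfp276 (0.89), and those most like Firre were Zfc3h1 (0.89), Sugp2 (0.89) and 2810410L24Rik (0.88). Most like Malat1 were Akap9 (0.84), Nsd1 (0.83) and Ppp6r3 (0.80), and most like Clk1 were its fellow member Ccnl2 (0.87), then 5730480H06Rik (0.87) and 1600020E01Rik (0.85).

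**Figure D5:**
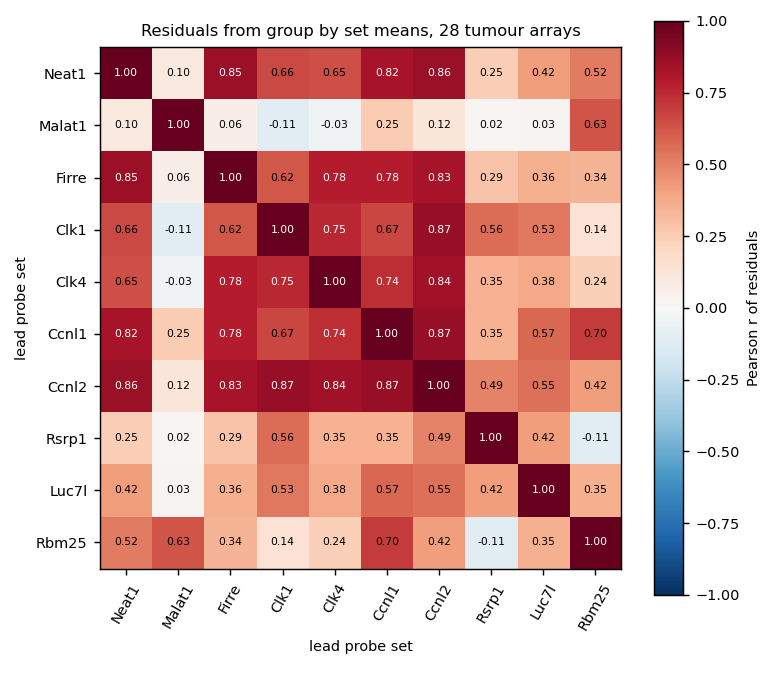
Pearson r between the residuals of the 10 lead probe sets about their group and set means over 28 tumour arrays; both axes list the lead probe sets and each cell prints its r. Pairs among Neat1, Firre, Clk1, Clk4, Ccnl1 and Ccnl2 are red, with r of 0.62 to 0.87, while Malat1 is pale except with Rbm25 (0.63).

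Other genes of the same pathways, 1 probe set a gene, were counted in TI-KM against TI-K primaries with the background given above. These lists were drawn up with earlier results of the arrays known. Of 15 nuclear speckle and exon junction proteins 5 fell and 0 rose (median -0.34), among them Pnn, a speckle protein (-1.23 ± 0.27, SE, limma adjusted p = 0.00494), and Nktr, a cyclophilin with arginine- and serine-rich stretches (-0.91 ± 0.21, adjusted p = 0.00602). Of 14 relatives of Luc7l and Rbm25 and other genes listed with them 6 fell and 0 rose (median -0.37), among them Ogt, the O-GlcNAc transferase (-1.19 ± 0.22, adjusted p = 0.00245), and the splicing regulator Rbm39 (-0.62 ± 0.14, adjusted p = 0.00561). Of 18 SR proteins and their kinases 3 fell and 2 rose (median -0.03), with Clk2, a sister kinase of Clk1 (-0.86 ± 0.17, adjusted p = 0.00291), and Srsf11 (-0.66 ± 0.16, adjusted p = 0.0101) named by the smallest p.

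Paraspeckle proteins, the partners of Neat1, showed 1 fall and 1 rise among 13 (median 0.04): Cpsf6 fell (-0.62 ± 0.16, limma adjusted p = 0.0111) and Sfpq, which binds Neat1, rose (0.69 ± 0.17, adjusted p = 0.0102). Other long noncoding RNAs showed 1 fall and 2 rises among 14 (median -0.01). Airn fell, and the rises were Snhg12 (0.97 ± 0.26, adjusted p = 0.0147) and Miat (0.92 ± 0.31, adjusted p = 0.0414). Nuclear RNA decay and export genes showed 2 falls and 2 rises among 13 (median -0.04), with Zfc3h1, which links nuclear RNA to the exosome, falling (-1.13 ± 0.23, adjusted p = 0.00339) and the export adaptor Alyref rising (0.72 ± 0.18, adjusted p = 0.0101). With set as a block none of these calls was kept, since 0 probe sets of all were called; Pnn then had -0.27, Ogt -0.42, Clk2 -0.32 and Snhg12 0.84. Between recurrences and TI-KM primaries, none of the 6 lists had a called gene in either direction by limma at an adjusted p below 0.05 (25 of their 87 genes had an unadjusted p below 0.05, as had 4308 of all 31932 probe sets), and the list medians lay between -0.26 and -0.04.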

How the data were processed

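RNA of 28 mouse lung tumours and 1 normal lung was measured on 1 array each. The deposited values are intensities on a linear scale, 1 per probe set. MAS5 is named in the submitters' processing notes, with no version. Trimmed by 2%, each array had a mean of 500.003, and no further scaling was done. MOE430A 2.0 is the platform in the series text, whereas 45101 probe sets were deposited. The platform annotation named 1 gene for 34958 probe sets, several for 932 and none for 9147, beside 64 controls; 34754 were matched to a RefSeq gene table (GRCm38.p6) by identifier.

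An offset of 20 was added before the log2. All 29 arrays entered 1 model in limma 3.58.1 (R 4.3.3) with a mean for each of the 4 groups and eBayes with a trend, over the 31932 probe sets above the 40th percentile of their array in at least 6 arrays. Calls needed an adjusted p below 0.05, by the Benjamini-Hochberg method across these probe sets. Comparisons between sets of arrays and the slope on the 3'/5' ratio used group by set cells as terms. Tables and figures used Python 3.11.15, pandas 2.3.3 and matplotlib 3.10.9. Precision is limited by the number of arrays. On simulated data with 100 probe sets changed 2-fold and 100 changed 4-fold, the comparison of TI-KM with TI-K primaries recovered 65 and 97 with 8 false calls. The simulated noise was independent between probe sets and arrays and held no sets of arrays. These numbers therefore check the fitting and do not give the error rate of the real comparison.

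Samples were grouped by their source labels. Replicate numbers follow accession order and pair nothing. The members and gene lists were chosen with earlier results of these data known. Every member probe set was accounted for; the lead has the highest mean signal. From each list the 2 called genes with the smallest p were named, and for Neat1, Malat1, Firre and Clk1 the 3 most similar genes. Alternatives were other offsets, scalings, filters and variance models, 2 groups alone, inferred sex or the 3'/5' ratio as a covariate, the sets of arrays as a block or apart, the pair numbered 76 averaged, and each array left out in turn.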

Additional observations from a re-analysis of the deposited data

Results flagged for a closer look

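Within each group of 6 or 8 tumours, the highest and the lowest array of every tested probe set were set against the others by Dixon's gap test, which flags about 1 group in 20 by chance. Of 64 groups of values 10 had such an array.

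TI-K replicate 8 was the low array in 7 of them. It had 588 for Neat1 (1428083_at), against 4214 to 16868 in the other 7 TI-K primaries. Its Firre signals were 107 (1435744_at), 20.2 (1438915_at) and 9.60 (1438916_x_at), with lowest values of 432, 220.01 and 239.5 elsewhere in the group. Its Ccnl1 signal was 761, against 2317 or more, and its Ccnl2 signals were 887 (1454149_a_at) and 789.641 (1432195_s_at), against 2521 and 2406 or more. The array is 1 of the 3 remaining TI-K arrays, and without it 23 rather than 19 of the 32 probe sets were called lower in TI-KM than in TI-K primaries, with 19.9% rather than 15.8% of all probe sets called.

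Recurrence replicate 3 was the high array for Malat1 (1438403_s_at, 2527, against 764 to 1075 in the other 5 recurrences) and for Clk4 (1422886_a_at, 418, against 171 to 234). TI-K replicate 6 was the high array for Rsrp1 (1435357_at, 2474, against 1242 to 1552).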

How the results depend on the processing

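Of the values for single lead probe sets under the alternatives, 2151 were classed as unchanged, 114 lost and 18 gained a call, 5 moved and 2 reversed. In both comparisons with recurrences, unchanged meant the same sign and a shift below the larger group SD. Elsewhere it meant the same side of the threshold, and a change of sign counted as reversed only if either value was called. Uncalled values also changed sign: in high-18S minus remaining TI-KM arrays with 1 array left out, the Ccnl1 lead ran from -0.20 to 0.17 and the Rbm25 lead from -0.21 to 0.27. The 2 reversals were in high-18S minus remaining TI-KM arrays scaled to a common median: -0.64 for Ccnl1 and -0.62 for Luc7l. That scaling raised the count there to 12, against 4.

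For TI-KM minus TI-K primaries (15.8% of all called) the count of 19 was 0 with the sets as a block, 0 among the remaining arrays and 0 without the high-number arrays (the last added after seeing the data). In each of these 0 of all probe sets were called. Without the high-18S arrays, also added after seeing the data, the count was 17, with 11.6% of all called. With 1 array left out it was 11 to 23. The genes were chosen with results of the recurrences known, so the counts against both primary groups describe the settings and support nothing. For recurrences minus TI-KM primaries, where 0.442% of all probe sets were called, the count of 6 was 3 with an offset of 50, 11 with the sets as a block, and 0 with the 3'/5' ratio as a covariate, 0 among the remaining arrays and, both added after seeing the data, 0 without the high-18S arrays and 0 among them; leaving 1 array out gave 1 to 10 (3, 1 and 2 without recurrence replicates 1, 2 and 3, 3 without TI-KM replicate 13 or 14, and 10 without TI-K replicate 8), with 0.0971% to 0.968% of all called. For recurrences minus TI-K primaries (26.9% of all called) the count of 26 was 2 with the block (0.197%), 0 among the remaining arrays (0.116%), 0 without the high-number arrays (0.0188%) and 25 to 27 with 1 array left out. The counts with 1 array left out were 2 to 6 for the 18S sets, 2 to 13 for the title-number sets and 4 to 11 for the 3'/5' slope. Subsets hold fewer arrays; otherwise the cause was not tested. Other settings stayed within 1.5 times these counts. No paired analysis was possible because the labels give the groups no shared replicate numbers. Weak probe sets, below or near 20, have no order.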
